A study of Rattus norvegicus with 12 samples.

Results

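The genes described here carry fatty acids into mitochondria, oxidise them there, or store and release them as triglyceride in lipid droplets. They were chosen by name, 37 genes of the 32883 listed in every library of a study of heart muscle cells from newborn rats, and each name matched 1 gene identifier. The study compared the cells' responses to 2 agonists of G protein-coupled receptors, and its title sets these responses in the development of hypertrophy and the elongation factor P-TEFb. The 6 groups of 2 libraries each were ET-1 (endothelin-1, 100 nM) with JQ1, PE (phenylephrine, an alpha-1 adrenergic agonist, 10 µM) with JQ1, vehicle (acetic acid) with JQ1, and ET-1, PE and vehicle with DMSO, JQ1's own vehicle. JQ1, given at 1 µM, displaces the BET proteins from acetylated chromatin, and every treatment lasted 24 h. All groups came from Sprague-Dawley rats of 1 to 3 days, were plated at 40000 cells per cm2 in 7% serum, and had AraC (10 µM), which acts against dividing cells such as fibroblasts, until 24 h before treatment. No label states whether the 2 libraries of a group come from different cell isolations. The p-values below therefore reflect only how far these libraries lie apart, which may be technical.

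Long-chain fatty acids are activated to acyl-CoA, passed over the mitochondrial membranes as carnitine esters, and shortened in repeated rounds of dehydrogenation, hydration, a further dehydrogenation and thiolysis. The heart of a newborn mammal turns from glucose and lactate towards fatty acids as fuel, and the nuclear receptors of the PPAR and ERR families with the coactivator PGC-1 control many of the genes concerned. Malonyl-CoA holds back the entry step, and lipid droplets, coated by perilipins, buffer the supply.

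RNA depth was 2.34 to 2.97 Gb of covered bases per library, and 12172 to 13543 genes had at least 1 FPKM (fragments normalised for transcript length and library size). All levels below are FPKM summed per gene and rescaled by median of ratios, and all differences are on the log2(FPKM + 0.5) scale with their standard error. Markers of cardiomyocytes were present throughout, with 9 of the 10 listed genes tested and a summed level of 18041 to 22578 with an agonist and JQ1, 15468 and 24518 with JQ1 alone, 13637 to 18526 with an agonist and 12345 and 16911 in vehicle. The 10 fibroblast markers summed to 513 and 112 with ET-1 and JQ1, 642 and 123 with PE and JQ1, 667 and 150 with JQ1 alone, 891 and 217 with ET-1, 973 and 222 with PE, and 1351 and 332 in vehicle (replicate 1 and replicate 2). Fibroblast markers were thus lower in replicate 2 of each group and lower in groups with JQ1 or an agonist, and their part in the results below was not tested. With the replicate number as a block, 7 of the 10 were called lower with ET-1 (9.5% of all genes), 4 with PE (12.2%) and all 10 with JQ1, averaged over treatments (36.9%). Of 8 adipocyte markers, Plin1, Retn, Lep and Adrb3 were listed at 0 in all 12 libraries, and Adipoq and Cidec did not exceed 0.0384 and 0.0172. Cfd reached 2.498 FPKM, and Fasn, the fatty acid synthase, which other cell types also express, stood at 15.5 to 61.7 FPKM and made up most of the list's sum of 15.9 to 62.4. Endothelial markers were low, with a summed level of 5.04 to 12.3 over all libraries and Cdh5, Vwf and Cldn5 each under 0.3. The summed level of 9 macrophage markers was 10.03 and 3.81 with ET-1 and JQ1, 9.83 and 2.88 with PE and JQ1 and 12.8 and 5.12 with JQ1 alone, against 15.6 and 6.64 with ET-1, 14.1 and 5.87 with PE and 21.0 and 9.21 in vehicle. That of 9 smooth muscle and pericyte markers was 2218 and 2643 with ET-1 and JQ1, 2279.9 and 2372 with PE and JQ1 and 1425 and 1362 with JQ1 alone, against 1969 and 2169 with ET-1, 1849 and 2049 with PE and 1382 and 1311 in vehicle, so it was higher with the agonists. In the smooth muscle and pericyte list Des (665 to 2055 FPKM) and Tagln (268 to 678 FPKM) were highest, while Myh11 and Pdgfrb peaked at 17.7 and 15.9 FPKM. The sum thus follows Des and Tagln most and is no measure of the number of smooth muscle cells or pericytes. The part of these shifts in the results was not tested. In such bulk samples fewer cells of a type and less RNA per cell cannot be told apart.

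A gene was tested if 2 or more libraries held 1 FPKM or more, as for 35 of the 37 and for 13793 genes in all, and 32 stayed at or above 1 in all 12. Lipe, the hormone-sensitive lipase, peaked at 1.32 in a single vehicle library, and Ucp3, a mitochondrial uncoupling protein, was listed at 0 in 11 libraries and at 0.0151 in the other. Neither was tested. Plin5 passed the filter only through its 2 vehicle libraries, so a difference from vehicle was built into its selection. Its values are given as a description, and counts of called genes are also given without it, over 34 genes.

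Averaged over the 12 libraries, Fabp3, the fatty acid-binding protein of heart muscle, led with 649 FPKM. Hadhb followed with 349 FPKM. Etfa (192), Hadha (167), Etfb (159), Acadm (134) and Acsl1 (112) came next, while Fabp4 (3.88), Acot1 (2.79) and Plin5 (0.667) were lowest among the genes tested. Neighbours in this order mostly overlapped in range: Etfa spanned 143 to 230 FPKM and Hadha 136 to 202 FPKM, but the range of Fabp3 overlapped only that of Hadhb (257 to 520 FPKM). Within vehicle the muscle-type carnitine palmitoyltransferase Cpt1b stood at 47.4 and 60.1 FPKM and the liver-type Cpt1a at 29.97 and 30.2 FPKM, so both isoforms were present in these neonatal cells. Among the acyl-CoA synthetases, Acsl1 made up 94.5 and 94.8% of the sum of Acsl1 and Acsl4 in the vehicle libraries.

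Hadha and Hadhb encode the alpha and beta subunits of the mitochondrial trifunctional protein, which carries out the last steps of long-chain oxidation. In the RefSeq annotation of the rat build GRCr8 the 2 genes point away from each other, with starts 301 bases apart on chromosome 6. The stretch chr6:31907551-31907750 lies before both starts and is shown once, on the plus strand in the direction of Hadha, because the pair's promoter windows share it and both genes were called higher with JQ1. The capitals in the other 2 sequences, which hold the 250 bases before the start, mark the nuclear receptor core motif AGGTCA. Acadvl, the very-long-chain acyl-CoA dehydrogenase, was chosen because it was called higher with JQ1. Plin5 was chosen for its lower level with each treatment, although a difference from vehicle was built into its selection. Plin5 is at chr9:1033285-1033534 and Acadvl at chr10:55236706-55236955 on GRCr8, both on the minus strand of that build.
Shared stretch of Hadha and Hadhb: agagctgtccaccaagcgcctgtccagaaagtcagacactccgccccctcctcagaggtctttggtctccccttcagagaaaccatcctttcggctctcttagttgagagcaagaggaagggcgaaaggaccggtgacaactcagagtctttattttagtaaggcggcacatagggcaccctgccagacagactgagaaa
Plin5: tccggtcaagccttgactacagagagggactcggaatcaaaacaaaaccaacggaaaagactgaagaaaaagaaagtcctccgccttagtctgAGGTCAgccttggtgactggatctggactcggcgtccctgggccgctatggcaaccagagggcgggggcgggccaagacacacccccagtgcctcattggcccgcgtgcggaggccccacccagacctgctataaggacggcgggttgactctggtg
Acadvl: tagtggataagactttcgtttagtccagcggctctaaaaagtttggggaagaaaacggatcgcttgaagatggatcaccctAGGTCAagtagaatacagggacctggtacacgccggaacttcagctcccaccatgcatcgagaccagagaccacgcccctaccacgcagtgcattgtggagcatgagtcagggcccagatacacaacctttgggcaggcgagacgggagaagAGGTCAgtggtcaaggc

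RefSeq promoter windows of 300 bases (250 before and 50 after the start) were found for 27 of the 37 genes, 28 windows in all, since Plin2 has 2. Lpl, Dgat2, Acadl, Lipe, Acaa2, Decr1, Ech1, Cpt1b, Dgat1 and Fabp4 had none in the table used. The core motif AGGTCA, searched on both strands, was in 7 of these 28 windows (25%), against 16.2% of all 33469 rat windows. It was in the windows of Acadvl, Hadhb, Echs1, Eci1, Eci2, Plin5 and Ucp3, which include genes called lower with JQ1, genes called higher and genes not called. The core motif repeated with 1 base between (0.0538% of all windows) and the core motif preceded by TCA (0.433%), both of which contain the core motif, were in none of the 28. The E-box CACGTG (6.42% of all windows) was in 1, that of Plin2. A match describes these letters only and is not a binding site.

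JQ1 was compared with DMSO to ask how BET inhibition altered these genes, first as the mean of the differences in ET-1, PE and vehicle. Of the 35 genes, 17 fell and 4 rose (limma, adjusted p under 0.05 over 13793 genes). Cpt1b, Plin2, Acot2, Acot1 and Ech1 led the fall, and Dgat2, Acadvl, Hadhb and Hadha rose. The 17 include Plin5, which is given as a description only. The share called was the same as among all genes, and the directions differed. JQ1 called 60% of these genes and 60.1% of all genes, yet 48.6% of these genes against 29.9% of all genes were called lower, and 11.4% against 30.2% were called higher. The median log2 difference was −0.40 over the 35 genes and 0.02 over all genes tested. Without Plin5 16 of 34 genes (47.1%) were called lower. With the replicate block 20 fell (36.9% of all genes) and 6 rose (36.6% of all genes), which added Fabp4, Acsl1 and Cpt2 to the lower and Pnpla2 and Acsl3 to the higher genes. Without Plin5, 19 of 34 genes (55.9%) fell in the fit with the block. On the deposited scale, before rescaling, 39.5% of all JQ1 calls were higher, against 50.3% with rescaling.

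**Figure D1:**
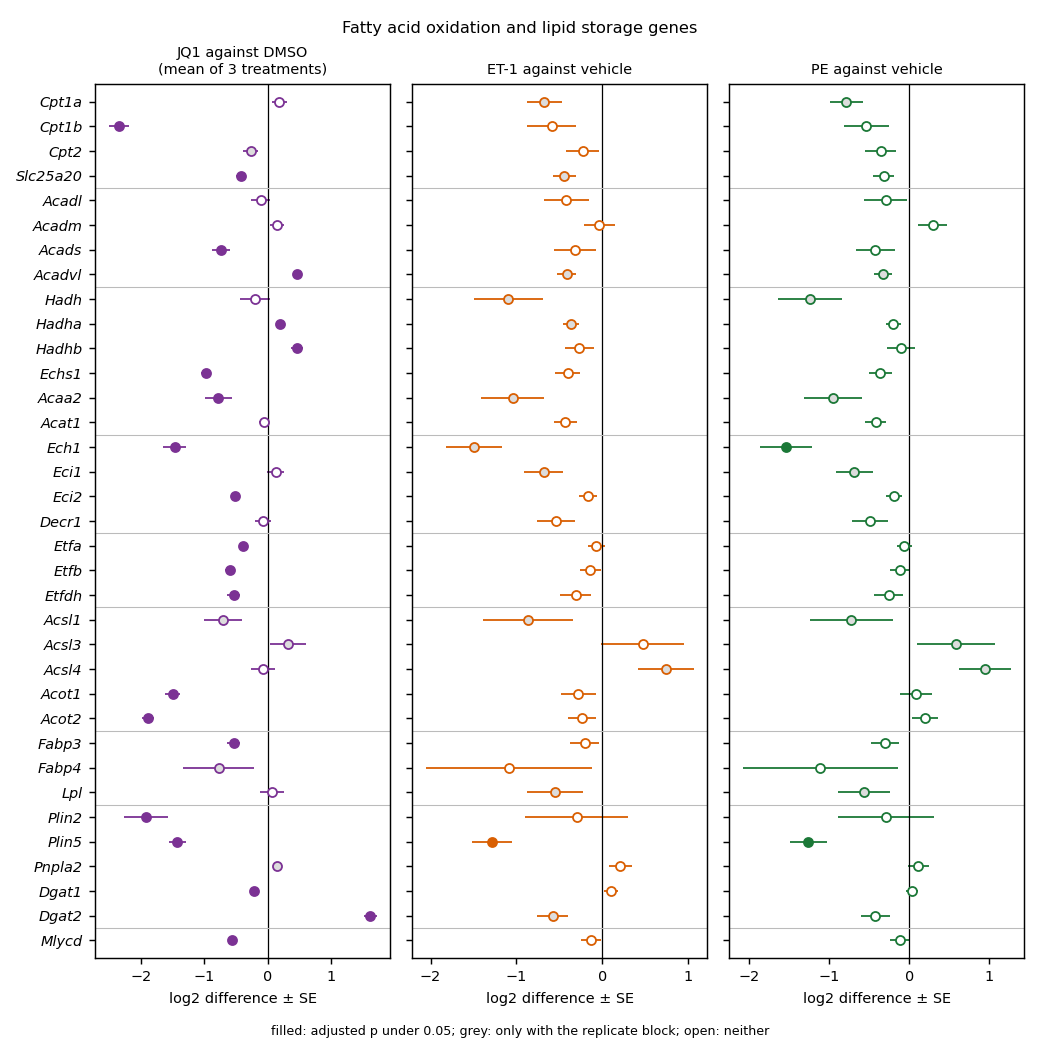
Log2 difference ± SE (x axis) for each of the 35 tested genes (y axis, grouped by role between grey lines) with JQ1 against DMSO (mean of the 3 treatments, 6 libraries against 6), ET-1 against vehicle and PE against vehicle (2 libraries against 2 each). Filled points had an adjusted p under 0.05, grey points only with the replicate block, and open points neither. JQ1 lowered Cpt1b by 2.35 and raised Dgat2 by 1.62, while with the agonists Ech1 and Plin5 lay farthest left.

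At the entry of fatty acids into mitochondria, 1 of the 2 carnitine palmitoyltransferase isoforms fell. Cpt1b (ENSRNOG00000010438, rn6 chr7:130395194-130405347, minus strand) stood at 5.78, 6.75 and 14.5 FPKM (lowest, median and highest of 6 libraries) with JQ1 and at 34.7, 36.7 and 60.1 FPKM with DMSO. The libraries did not overlap, and Cpt1b fell by 2.35 ± 0.16 (adjusted p = 1.1e-05). Cpt1a (ENSRNOG00000014254, rn6 chr1:218569510-218629678, plus strand) stood at 16.4, 23.8 and 36.5 FPKM with JQ1 and at 15.4, 19.7 and 30.2 FPKM with DMSO, with overlap and a difference of 0.18 ± 0.12 (adjusted p = 0.22). Cpt1a made up 67.9 to 82.4% of the sum of both (median 75.4%) in the JQ1 libraries and 29.1 to 38.7% (median 34.3%) in the DMSO libraries. These shares did not overlap, and the difference between the 2 genes was not tested. Slc25a20, the carnitine-acylcarnitine carrier of the inner membrane, fell by 0.42 ± 0.08 (adjusted p = 0.0017). Cpt2, the inner carnitine palmitoyltransferase, differed by −0.27 ± 0.11 (adjusted p = 0.067, or 0.013 with the replicate block).

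Of the 4 acyl-CoA dehydrogenases, which open each round and act on different chain lengths, 1 fell and 1 rose. Acads, for short chains, stood at 29.0, 44.0 and 47.8 FPKM with JQ1 and at 52.9, 69.8 and 79.5 FPKM with DMSO (lowest, median, highest), without overlap, and fell by 0.75 ± 0.14 (adjusted p = 0.0022). Acadvl (ENSRNOG00000018114, rn6 chr10:56619303-56624526, minus strand), for very long chains, stood at 97.0, 108 and 136 FPKM with JQ1 and at 70.9, 75.4 and 102 FPKM with DMSO. It rose by 0.46 ± 0.06 (adjusted p = 0.00039), although the highest DMSO library, of vehicle, lay above the lowest JQ1 library, of ET-1. Acadm, for medium chains, and Acadl, for long chains, differed by 0.14 ± 0.11 and −0.11 ± 0.15 (adjusted p = 0.28 and 0.54).

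Of the 6 genes of the later steps, both trifunctional protein subunits rose and Echs1 and Acaa2 fell. Hadhb (ENSRNOG00000010800, rn6 chr6:27555412-27582995, minus strand) stood at 344, 377 and 520 FPKM with JQ1 and at 257, 296 and 321 FPKM with DMSO, without overlap, and rose by 0.46 ± 0.10 (adjusted p = 0.0042). In vehicle Hadhb was not called (0.17, adjusted p = 0.49). Its rise was 0.34 in replicate 1 and 0.85 in replicate 2 with ET-1, and 0.36 and 0.86 with PE. Hadha (ENSRNOG00000024629, rn6 chr6:27589657-27629175, plus strand) rose by only 0.18 ± 0.05 (adjusted p = 0.018), with overlapping libraries. This call was lost on the deposited scale (0.10, adjusted p = 0.38), and Hadha was called in no single treatment (adjusted p 0.13 to 0.19). Echs1, the short-chain enoyl-CoA hydratase, stood at 20.5, 25.2 and 33.4 FPKM with JQ1 and at 42.1, 50.2 and 61.9 FPKM with DMSO. Its libraries did not overlap and it fell by 0.98 ± 0.08 (adjusted p = 3.2e-05). Acaa2, the 3-ketoacyl-CoA thiolase, fell by 0.78 ± 0.21 (adjusted p = 0.012), while the acetoacetyl-CoA thiolase Acat1 (−0.07 ± 0.08, adjusted p = 0.48) and the short-chain hydroxyacyl-CoA dehydrogenase Hadh (−0.20 ± 0.23, adjusted p = 0.48) were not called.

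Of the enzymes for unsaturated fatty acids, Ech1 (ENSRNOG00000020308, rn6 chr1:87009730-87016005, plus strand), a dienoyl-CoA isomerase, fell most. It stood at 24.5 and 15.6 FPKM with ET-1 and JQ1, 23.2 and 18.6 FPKM with PE and JQ1, and 41.8 and 64.8 FPKM with JQ1 alone, against 68.6 and 44.8 FPKM with ET-1, 66.1 and 43.6 FPKM with PE, and 149 and 166 FPKM in vehicle (replicate 1 and 2). Within each treatment both JQ1 libraries lay below both DMSO libraries, and the averaged difference was −1.47 ± 0.19 (adjusted p = 0.00024). Eci2, an enoyl-CoA isomerase, fell by 0.51 ± 0.06 (adjusted p = 0.00015), its libraries apart at 50.2 to 65.1 FPKM with JQ1 and 72.4 to 89.1 FPKM with DMSO. Its relative Eci1 (0.12 ± 0.13, adjusted p = 0.44) and the dienoyl-CoA reductase Decr1 (−0.08 ± 0.13, adjusted p = 0.63) were not called.

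All 3 genes of the electron transfer flavoprotein system, which passes electrons from the acyl-CoA dehydrogenases to ubiquinone, fell with JQ1 and had no library in common range with DMSO. The subunit genes Etfb and Etfa fell by 0.60 ± 0.07 (adjusted p = 0.00017) and 0.40 ± 0.06 (adjusted p = 0.00041), and Etfdh, the ubiquinone oxidoreductase, by 0.54 ± 0.11 (adjusted p = 0.0025). Etfb stood at 114 to 143 FPKM with JQ1 and 182 to 214 FPKM with DMSO. Mlycd, the malonyl-CoA decarboxylase, also lay apart (30.2 to 38.0 FPKM with JQ1, 46.6 to 54.2 FPKM with DMSO) and fell by 0.56 ± 0.07 (adjusted p = 0.00021).

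Both acyl-CoA thioesterases fell. Acot2 (ENSRNOG00000010134, rn6 chr6:107460668-107467487, plus strand), the mitochondrial enzyme, stood at 3.61 to 6.83 FPKM with JQ1 and 15.4 to 26.3 FPKM with DMSO, and fell by 1.89 ± 0.09 (adjusted p = 3.1e-06). Acot1, the cytosolic enzyme, stood at 0.835 to 1.71 FPKM with JQ1 and 3.03 to 5.57 FPKM with DMSO, and fell by 1.5 ± 0.12 (adjusted p = 1.8e-05). The 2 genes are near-identical neighbours 17761 bases apart on chromosome 6, so the split of reads between them is uncertain. Acot2 took 80.0 to 81.9% of their sum with JQ1 and 81.3 to 83.5% with DMSO. The synthetases, which activate fatty acids, were not called without the block: Acsl1 differed by −0.71 ± 0.30 (adjusted p = 0.073, or 0.00049 with the block), Acsl3 by 0.32 ± 0.28 (0.35, or 0.023 with the block) and Acsl4 by −0.07 ± 0.19 (0.76, or 0.51 with the block).

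Lipid storage genes moved in both directions. Plin2 (ENSRNOG00000007060, rn6 chr5:104984414-105010857, minus strand), a lipid droplet coat protein of many tissues, stood at 23.0 and 8.25 FPKM with ET-1 and JQ1, 23.1 and 9.20 FPKM with PE and JQ1 and 22.3 and 12.5 FPKM with JQ1 alone. Its DMSO levels were 68.6 and 43.0 FPKM with ET-1, 74.0 and 40.2 FPKM with PE and 79.7 and 56.1 FPKM in vehicle (replicate 1 and 2), so the JQ1 and DMSO libraries did not overlap. Plin2 fell by 1.92 ± 0.35 (adjusted p = 0.0017). Replicate 1 was higher than replicate 2 in all 6 groups, as were the fibroblast markers, and the difference was −1.68 within replicate 1 and −2.17 within replicate 2.

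Plin5 (ENSRNOG00000047860, rn6 chr9:10956056-10961782, plus strand on that build), a perilipin of oxidative tissues, was at 0.0402 and 0.0501 FPKM with ET-1 and JQ1, 0.0393 and 0.0434 FPKM with PE and JQ1, and 0.0891 and 0.299 FPKM with JQ1 alone. Without JQ1 it was at 0.768 and 0.577 FPKM with ET-1, 0.911 and 0.499 FPKM with PE, and 2.32 and 2.37 FPKM in vehicle. All JQ1 libraries lay below all DMSO libraries. The difference was −1.43 ± 0.14 on the log2(FPKM + 0.5) scale, which understates the change of so low a gene. No p-value is read for Plin5, since it was tested only through its high vehicle libraries. Lipe, which was not tested, stood at 0.191 to 0.431 FPKM with JQ1 and 0.466 to 1.32 FPKM with DMSO, also apart.

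Triglyceride synthesis ends with the diacylglycerol acyltransferases, and the 2 enzymes moved in opposite directions. Dgat2 (ENSRNOG00000016573, rn6 chr1:164113459-164143818, minus strand) stood at 11.3, 13.6 and 18.0 FPKM with JQ1 and at 3.48, 3.93 and 6.26 FPKM with DMSO (lowest, median, highest). It rose by 1.62 ± 0.10 (adjusted p = 7.9e-06), the largest rise among these genes. Dgat1 stood at 17.6 to 20.4 FPKM with JQ1 and at 21.4 to 24.0 FPKM with DMSO, and fell by 0.22 ± 0.05 (adjusted p = 0.0033), a small change with no overlap. Dgat2 made up 37.04 to 46.9% of their sum in the JQ1 libraries and 12.7 to 22.01% in the DMSO libraries, so Dgat1 was the higher of the 2 in every library. Pnpla2, the adipose triglyceride lipase, differed by 0.15 ± 0.07 (adjusted p = 0.12, or 0.016 with the block).

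**Figure D2:**
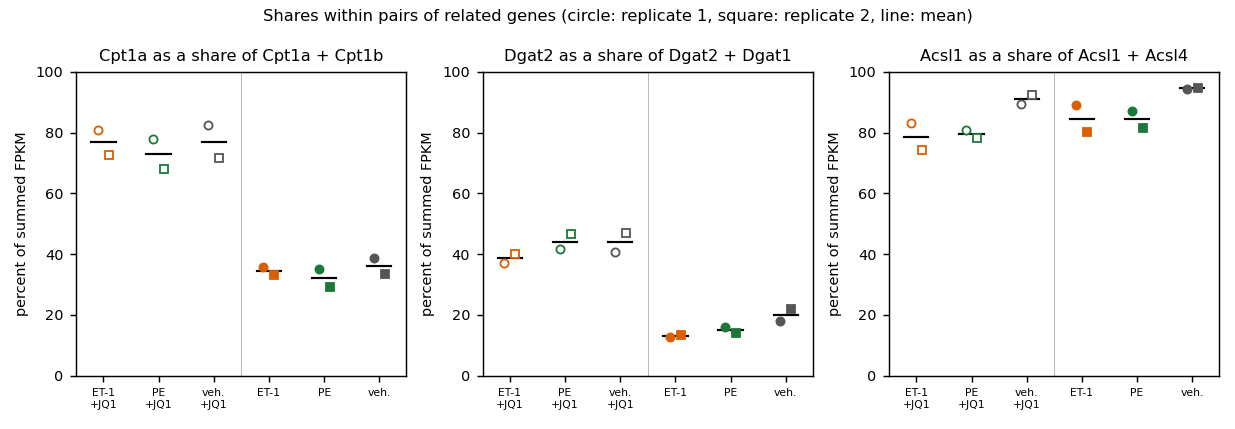
Share of the first gene in the summed FPKM of a pair (y axis, percent), for each library of the 6 groups (x axis, JQ1 groups left, DMSO groups right). Circles are replicate 1, squares replicate 2 and lines the mean of both. Cpt1a exceeded 67% of the Cpt1 sum in every JQ1 library and stayed under 39% in every DMSO library, Dgat2 had its higher shares with JQ1, and Acsl1 had its highest shares in vehicle.

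Of the 3 genes of uptake and binding 1 fell. Fabp3 stood at 417 to 787 FPKM with JQ1 and 636 to 933 FPKM with DMSO and fell by 0.54 ± 0.10 (adjusted p = 0.0019). Fabp4, a binding protein of adipocytes, endothelial cells and macrophages, differed by −0.78 ± 0.56 (adjusted p = 0.26, or 0.0076 with the block), and it was higher in replicate 1 in all 6 groups, 12.3 against 4.01 FPKM in vehicle. Lpl, the lipoprotein lipase, differed by 0.07 ± 0.19 (adjusted p = 0.77), and its sign turned on the deposited scale.

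In all, 13 of the 35 genes (37.1%) had every JQ1 library below every DMSO library, against 18.5% of all genes, and 2, Dgat2 and Hadhb, the reverse (5.71%, against 17.9%). The 13 were Cpt1b, Acads, Echs1, Eci2, Etfa, Etfb, Etfdh, Acot1, Acot2, Plin2, Plin5, Mlycd and Dgat1. They include Plin5, whose selection built in a difference from vehicle. Summed over the 37 genes, the level was 2574 and 2289 FPKM with ET-1 and JQ1, 2645 and 2421 FPKM with PE and JQ1, and 2919 and 3218 FPKM with JQ1 alone, against 3089 and 2755 FPKM with ET-1, 3099 and 2881 FPKM with PE, and 3627 and 3818 FPKM in vehicle. In each treatment both JQ1 libraries lay below both DMSO libraries. This sum follows the highest genes most and is no measure of a fall of each gene. The mean of Fabp3 alone was 504 FPKM with ET-1 and JQ1 against 739 FPKM with ET-1. It was 421 against 695 FPKM for PE, and 680 against 856 FPKM for vehicle. Hadhb, the next highest, rose, and 10 of the 35 genes had positive averaged differences.

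Within single treatments, JQ1 called 12 genes lower in vehicle (16.7% of all genes), 16 in ET-1 (19.6%) and 13 in PE (19%), and 2 (15.3%), 3 (17.9%) and 3 (17.5%) higher. Without Plin5, 11 of 34 genes were called lower in vehicle (32.4%), 15 in ET-1 (44.1%) and 12 in PE (35.3%). Without replicate 1 of vehicle with JQ1 the calls in vehicle numbered 7 in place of 14, and without replicate 2 of vehicle 9. In ET-1 they numbered 10 in place of 19 without replicate 1 of ET-1, and 10 without replicate 2 of ET-1 with JQ1. On the deposited scale 31.3% of all calls in vehicle and 31.9% in ET-1 were higher, against 47.9% and 47.8% with rescaling. For Cpt1b the differences were −2.47 in ET-1, −2.24 in PE and −2.34 in vehicle, for Acot2 −2.01, −1.99 and −1.67, and for Dgat2 1.67, 1.78 and 1.40. Hadhb differed by 0.59, 0.61 and 0.17.

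Whether the agonists changed the JQ1 effect was tested as an interaction. None of the 35 genes was called with ET-1 or with PE by limma, with or without the replicate block, and 1 had an unadjusted p under 0.05 in each test (4.47% and 5.2% of all genes). Over all genes 0 were called without the block, and 5 and 10 with it (0.0363% and 0.0725%). The gene in both tests was Plin5, for which no interaction is read. Its mean level was 0.0451 FPKM with ET-1 and JQ1 against 0.672 FPKM with ET-1, 0.0413 FPKM with PE and JQ1 against 0.705 FPKM with PE, and 0.194 FPKM with JQ1 alone against 2.34 FPKM in vehicle. The ratio of JQ1 to DMSO on this linear scale was 0.0671 in ET-1, 0.0586 in PE and 0.0828 in vehicle, so the smaller log2(FPKM + 0.5) differences of Plin5 with the agonists (−1.10 and −1.13, against −2.05 in vehicle) came with the added 0.5.

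**Figure D3:**
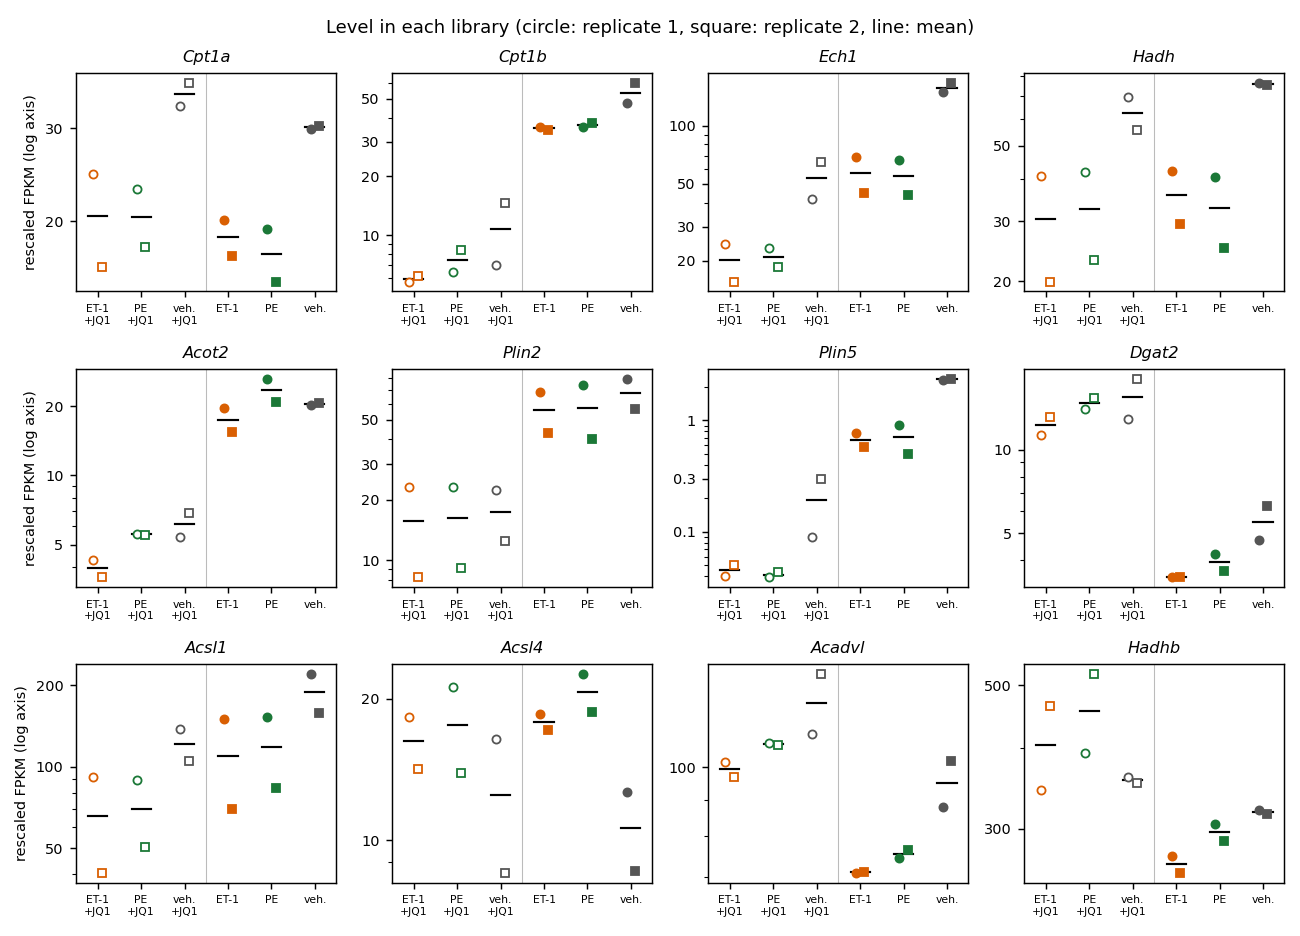
Rescaled FPKM (y axis, log scale) of 12 genes in each library of the 6 groups (x axis, JQ1 groups left, DMSO groups right). Circles are replicate 1, squares replicate 2 and lines the mean. Cpt1b, Acot2, Plin2 and Plin5 lay lower in all JQ1 than in all DMSO libraries and Dgat2 and Hadhb higher, and Ech1 and Hadh had their highest DMSO levels in vehicle.

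The agonists were compared with vehicle in the absence of JQ1. With ET-1 31 of 35 genes had negative and 4 positive differences under each of the 3 scalings tried, with a median of −0.37. Over all 13793 genes 6570 differences were positive, and the median was −0.02. Few passed the test. The 1 gene called lower (1.57% of all genes were) was Plin5, whose fall from vehicle its selection built in, and none was called higher (1.31%). Without Plin5, limma called 0 of 34 genes, and of the 35 genes 13 had an unadjusted p under 0.05 (20.3% of all genes). With the replicate block 12 genes fell (34.3%, against 9.5% of all genes; 11 of 34, or 32.4%, without Plin5) and Acsl4 rose (2.86%, against 8.89%). Both ET-1 libraries lay below both vehicle libraries for 27 genes (77.1%), against 25.3% of all genes, and above them for 3 (8.57%, against 25.7%). Plin5, whose selection built this in, was among the 27. The share of bases from mitochondrially encoded genes was lower within each replicate number. It was 1.29 and 2.10% with ET-1 and 1.2415 and 1.74% with PE, against 1.85 and 3.43% in vehicle. Replicate 2 of vehicle lay highest of all 12 libraries, and replicate 2 of ET-1 lay above replicate 1 of vehicle. Under JQ1 the share was 1.58 and 2.35% with ET-1, again overlapping vehicle, and 1.51 and 1.90% with PE, against 1.94 and 2.66% in vehicle. Its part in these differences, and that of the fibroblast, macrophage and smooth muscle markers given above, was not tested. Among those markers Cnn1, a smooth muscle calponin, differed by 1.65 ± 0.41 with ET-1 (adjusted p = 0.073, or 0.0018 with the block) and rose by 1.84 ± 0.41 with PE (adjusted p = 0.039). Cnn1 is 1 of 8 tested genes of its list and says nothing of the others or of the number of such cells.

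PE gave a like picture against the same vehicle libraries, which the 2 comparisons share. Differences were negative in 28 of 35 genes, and in 31 on the deposited scale, where Dgat1, Pnpla2 and Acot1 turned sign, with a median of −0.32 against −0.01 over all genes. Ech1 and Plin5 were called lower and none higher (3.18% and 2.89% of all genes were). Without Plin5, 1 of 34 genes (2.94%) was called lower, near the share of all genes, and of the 35 genes 12 had an unadjusted p under 0.05 (23.1% of all genes). With the block 9 fell (25.7%, against 12.2%; 8 of 34, or 23.5%, without Plin5) and 2, Acsl4 and Acsl3, rose (5.71%, against 11.8%). PE lay below vehicle without overlap for 23 genes (65.7%, against 26.9%) and above it for 4 (11.4%, against 27%). Plin5 was among the 23, again through its selection. On the deposited scale 35.3% of all PE calls were higher, against 47.6% with rescaling.

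These agonist calls rest on few libraries. Leaving out any 1 of the 2 ET-1 and 2 vehicle libraries, or any 1 of the 4 libraries with an agonist and JQ1, limma called no gene with ET-1. With the block, 6 were called without replicate 1 of ET-1, and 0 without replicate 2 of ET-1 or of vehicle. For PE 0 were called without any 1 of the 4 compared libraries and 1 without either library of PE with JQ1. With the block 7 were called without replicate 1 of PE, 2 without replicate 2 of vehicle and 0 without replicate 2 of PE.

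Ech1 was called lower with PE, and with ET-1 only with the block. The ET-1 libraries held 68.6 and 44.8 FPKM and the PE libraries 66.1 and 43.6 FPKM, against 149 and 166 FPKM in vehicle, without overlap. The difference was −1.49 ± 0.32 with ET-1 (adjusted p = 0.052, or 0.014 with the block) and −1.54 ± 0.32 with PE (adjusted p = 0.034). It was larger in replicate 2 (−1.88 and −1.92) than in replicate 1 (−1.11 and −1.16). Plin5 differed by −1.28 ± 0.24 with ET-1 and −1.26 ± 0.24 with PE, and with a pseudocount of 0.1 by −1.67 and −1.65. These values are a description, since its selection built in a difference from vehicle.

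Several steps of the oxidation spiral were called lower only when the replicate number was a block. Hadh (ENSRNOG00000010697, rn6 chr2:236353445-236395067, minus strand) stood at 42.3 and 29.4 FPKM with ET-1 and 40.4 and 25.1 FPKM with PE, against 76.4 and 75.3 FPKM in vehicle. Both agonists lay below vehicle in both replicates, and the differences were −1.09 ± 0.40 (adjusted p = 0.18, or 0.013 with the block) and −1.24 ± 0.40 (0.11, or 0.0065 with the block). Acaa2 stood at 76.6 and 44.3 FPKM with ET-1 and 78.4 and 49.4 FPKM with PE, against 127 and 115 FPKM in vehicle, with differences of −1.04 ± 0.36 and −0.95 ± 0.36 (adjusted p = 0.016 and 0.019 with the block). Eci1 differed by −0.68 ± 0.23 with each agonist (adjusted p = 0.036 with ET-1 and 0.030 with PE, both with the block). Acadvl differed by −0.41 ± 0.11 with ET-1 and −0.32 ± 0.11 with PE (adjusted p = 0.025 and 0.044 with the block), and Hadha by −0.37 ± 0.09 with ET-1 (adjusted p = 0.025 with the block).

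Cpt1a and not Cpt1b was called among the carnitine transferases, again with the block. Cpt1a stood at 20.1 and 17.2 FPKM with ET-1 and 19.3 and 15.4 FPKM with PE, against 29.97 and 30.2 FPKM in vehicle. It differed by −0.68 ± 0.20 with ET-1 (adjusted p = 0.12, or 0.023 with the block) and −0.79 ± 0.20 with PE (0.061, or 0.011 with the block). Cpt1b stood at 35.9 and 34.7 FPKM with ET-1 and 35.8 and 37.5 FPKM with PE, against 47.4 and 60.1 FPKM in vehicle, also without overlap, and differed by −0.59 ± 0.28 and −0.54 ± 0.28 (adjusted p = 0.098 and 0.11 with the block). The share of Cpt1a in their sum was 35.9 and 33.2% with ET-1 and 35.1 and 29.1% with PE, against 38.7 and 33.5% in vehicle. Slc25a20 differed by −0.44 ± 0.13 with ET-1 (adjusted p = 0.040 with the block) and −0.32 ± 0.13 with PE (adjusted p = 0.087 with the block).

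The acyl-CoA synthetases differed in sign. Acsl1 (ENSRNOG00000010633, rn6 chr16:48937456-49003246, minus strand), the main form of heart muscle, stood at 150 and 69.7 FPKM with ET-1 and 152 and 83.4 FPKM with PE, against 219 and 158 FPKM in vehicle. It differed by −0.86 ± 0.52 and −0.72 ± 0.52 (adjusted p = 0.020 and 0.029 with the block). Acsl4 (ENSRNOG00000019180, rn6 chrX:113596239-113659944, minus strand), which prefers arachidonic acid, stood at 18.5 and 17.2 FPKM with ET-1 and 22.5 and 18.7 FPKM with PE, against 12.7 and 8.60 FPKM in vehicle. It differed by 0.74 ± 0.33 and 0.94 ± 0.33 (adjusted p = 0.022 and 0.0075 with the block). Acsl1 made up 89.0 and 80.3% of the sum of both with ET-1 and 87.1 and 81.6% with PE, against 94.5 and 94.8% in vehicle, a difference in shares that was not tested. Acsl3 differed by 0.47 ± 0.48 with ET-1 and 0.58 ± 0.48 with PE (adjusted p = 0.10 and 0.048 with the block).

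Storage genes other than Plin5 gave few calls with the agonists. Dgat2 stood at 3.48 FPKM in both ET-1 libraries and 4.21 and 3.66 FPKM with PE, against 4.72 and 6.26 FPKM in vehicle. It differed by −0.58 ± 0.18 with ET-1 (adjusted p = 0.033 with the block) and −0.43 ± 0.18 with PE (adjusted p = 0.070 with the block), the opposite sign to its difference with JQ1. Lpl differed by −0.55 ± 0.33 with ET-1 and −0.56 ± 0.33 with PE (adjusted p = 0.023 and 0.017 with the block). Plin2 differed by −0.30 ± 0.60 and −0.29 ± 0.60, and Dgat1 and Pnpla2 by under 0.3 in size, none of them called with either fit. The electron transfer flavoprotein genes, among the highest here, had differences of −0.06 to −0.31 and were not called either.

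PE against ET-1 showed no call among these genes by limma in either fit, where 0.00725% of all genes were called and 1 of the 35 had an unadjusted p under 0.05 (1.49% of all genes). That gene was Acot2, at 26.3 and 20.9 FPKM with PE against 19.5 and 15.4 FPKM with ET-1, a difference of 0.42 ± 0.16 (adjusted p = 1). The 35 differences ran from −0.14 to 0.42 with a median of 0.02.

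In the presence of JQ1 the agonists were set against vehicle with JQ1. No gene was called by limma with ET-1 (1.36% of all genes) or with PE (0.718%), with 17 and 9 genes at an unadjusted p under 0.05 (17.1% and 16.3% of all genes). With the block 9 fell with ET-1 (25.7%, against 6.68% of all genes) and 6 with PE (17.1%, against 5.89%), and Pnpla2 rose with both (2.86%, against 4.92% and 6.17%). Ech1, Hadh, Acsl1, Eci1 and Cpt1a were among the lower genes of both, Acaa2, Acot2, Acat1 and Hadha of ET-1 and Fabp3 of PE. Both agonist libraries lay below both vehicle libraries for 22 genes with ET-1 (62.9%, against 24.3%) and 18 with PE (51.4%, against 23.5%). The median was −0.35 with ET-1 and −0.22 with PE, against −0.01 over all genes for each.

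Hadh under JQ1 stood at 40.8 and 19.98 FPKM with ET-1 and 42.0 and 23.2 FPKM with PE, against 69.7 and 55.6 FPKM in vehicle. It differed by −1.11 ± 0.40 and −0.98 ± 0.40 (adjusted p = 0.017 and 0.026 with the block). Pnpla2, which releases fatty acids from droplets, stood at 6.34 and 7.60 FPKM with ET-1 and 6.78 and 7.86 FPKM with PE, against 4.73 and 5.51 FPKM in vehicle with JQ1, a difference of 0.41 ± 0.13 and 0.48 ± 0.13 (adjusted p = 0.018 and 0.012 with the block). The calls with the block were 0 without replicate 2 of vehicle with JQ1 in either comparison, and also 0 for ET-1 without replicate 2 of ET-1 with JQ1 and for PE without either library of PE with JQ1. They numbered 6 for ET-1 and 4 for PE without either library of PE with DMSO, in place of 10 and 7, and 11 for PE without replicate 1 of vehicle with JQ1. Without replicate 1 of ET-1 with JQ1 and without the block, 1 gene was called with ET-1. On the deposited scale 36% of all ET-1 calls under JQ1 were higher, against 23.5% with rescaling, and 71% of PE calls, against 53.5%.

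The replicates differed for some of these genes in every group. Hadh, Acsl1, Acsl3, Acsl4, Fabp4, Lpl and Plin2 were higher in replicate 1 in all 6 groups, 6 of the 7 by a median of over 0.5 on the log2(FPKM + 0.5) scale, and Etfb and Pnpla2 were higher in replicate 2. Fabp4 had the widest gap, 4.41 and 0.695 FPKM with ET-1 and JQ1 and 7.49 and 1.10 FPKM with ET-1. The fibroblast markers were higher in replicate 1 as well, and their part was not tested.

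The regulators of these genes were followed as a list of 18, of which Pparg, at most 0.831 FPKM, was not tested. JQ1 lowered 8 of 17 and raised 5, against 29.9% and 30.2% of all genes, with a median of −0.11. Perm1, a muscle regulator of PGC-1 and ERR targets, stood at 0.523 and 0.684 FPKM with ET-1 and JQ1, 0.828 and 1.01 FPKM with PE and JQ1 and 0.614 and 1.68 FPKM with JQ1 alone, against 8.56 and 9.92 FPKM with ET-1, 9.79 and 11.4 FPKM with PE and 12.8 and 18.7 FPKM in vehicle. Perm1 fell by 3.15 ± 0.17 (adjusted p = 4.5e-06). On the log2(FPKM + 0.5) scale this was more than any of the 35 genes, but that scale understates the fall of Plin5. Rxrg, the gamma form of the retinoid X receptor that pairs with PPARs, stood at 0.116 and 0.189 FPKM with ET-1 and JQ1, 0.371 and 0.533 FPKM with PE and JQ1 and 0.864 and 2.25 FPKM with JQ1 alone, against 5.60 and 5.71 FPKM with ET-1, 5.62 and 6.02 FPKM with PE and 13.7 and 20.2 FPKM in vehicle. It fell by 3.04 ± 0.18 (adjusted p = 5.5e-06).

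Further regulators fell by less. Ppargc1b and Ppargc1a, which encode PGC-1beta and PGC-1alpha, fell by 1.03 ± 0.16 and 0.62 ± 0.09. Rxra fell by 0.82 ± 0.18, Ppara by 0.73 ± 0.12, Esrrb by 0.56 ± 0.19 and Esrra by 0.42 ± 0.10, with adjusted p from 0.00038 to 0.036. Ppard rose by 0.57, Nrip1, a corepressor, by 0.49, Klf15 by 0.44, Rxrb by 0.34 and Nrf1 by 0.26. Esrrg, Gabpa, Tfam and the corepressor Ncor1 were not called (adjusted p 0.055 to 0.87, Ncor1 0.038 with the block).

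With both agonists the retinoid X receptor genes Rxrg and Rxra were among the most negative differences in this list. Rxrg differed by −1.48 ± 0.31 with ET-1 (adjusted p = 0.048) and −1.44 ± 0.31 with PE (adjusted p = 0.036), and with PE Klf15 (−0.88 ± 0.18, adjusted p = 0.032) and Rxrb (−0.67 ± 0.14, adjusted p = 0.036) fell too. Rxra stood at 12.2 and 9.90 FPKM with ET-1 and 11.3 and 8.46 FPKM with PE, against 22.2 and 23.8 FPKM in vehicle, and differed by −1.03 and −1.19 (adjusted p = 0.022 and 0.011 with the block). With ET-1, Klf15 (adjusted p = 0.033) and Perm1 (adjusted p = 0.037) also passed with the block. The medians were −0.23 with ET-1 and −0.25 with PE.

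**Figure D4:**
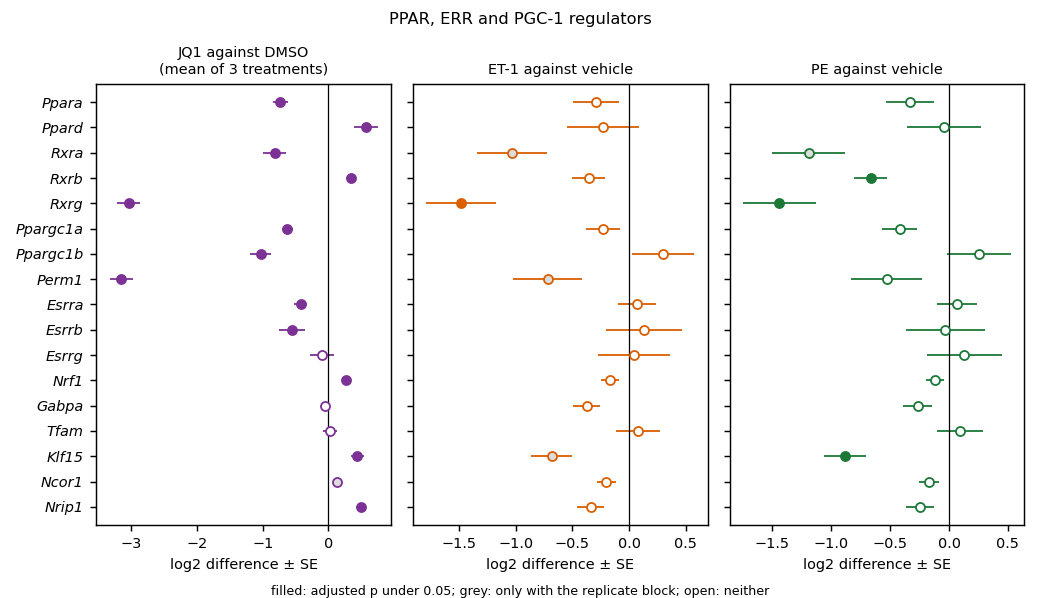
Log2 difference ± SE (x axis) for the 17 tested regulators (y axis) with JQ1 against DMSO (mean of the 3 treatments), ET-1 against vehicle and PE against vehicle, with the same marks for calls as in the plot of the 35 genes. Perm1 and Rxrg lay lowest with JQ1, at −3.15 and −3.04, and Rxrg lowest with both agonists.

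Other genes of lipid metabolism were listed by pathway. Of 21 tested genes of droplets and triglyceride turnover, JQ1 lowered 10 and raised 3 (29.9% and 30.2% of all genes), with Plin4 (−2.31), Fitm1 (−2.09), Lpin3 (−1.72) and Cidea (−1.44) changed most, and Fitm1, a fat storage-inducing protein of muscle, also fell with ET-1 (−1.11, adjusted p = 0.036) and PE (−1.09, adjusted p = 0.027). Of 12 genes of malonyl-CoA and fuel signalling 3 fell and 2 rose with JQ1, both below the 29.9% and 30.2% of all genes. Among them Acacb, which makes malonyl-CoA at the mitochondrial surface, fell by 2.25 ± 0.15 and the AMPK subunit Prkag2 by 1.33, while Txnip rose by 1.28. Pdk2, a pyruvate dehydrogenase kinase, fell by 1.01 with JQ1 and by 1.26 with PE (adjusted p = 0.016).

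Peroxisomal oxidation (11 tested) had 6 genes lower and 2 higher with JQ1 (29.9% and 30.2% of all genes), the higher being Amacr (1.14) and Abcd3 (0.92), and Phyh fell most (−0.93). A list of further oxidation genes (14 tested) also held genes outside mitochondrial fatty acid oxidation, such as Ivd, Hibch, Hibadh and Acaa1a. It gave 7 lower and 1 higher with JQ1 against the same shares of all genes, Acadsb at −0.72 and Acot13 at −0.51 among them. There, Acad10 fell and Acot9 rose with ET-1 (−0.90 and 0.62) and PE (−1.03 and 0.79). Of 11 genes of uptake and activation 4 fell, near the 29.9% of all genes, and 2 rose, against 30.2%, with JQ1, including Acsl5 (−0.88) and Dbi (−0.74). Of 5 genes of ketone bodies 3 fell and none rose (29.9% and 30.2% of all genes), with Bdh1, which interconverts them, at −1.86 with JQ1 but higher by 1.12 with PE (adjusted p = 0.045). The medians with JQ1 were −0.36, −0.20, −0.39 and −0.32 in these 4 lists, −0.19 for droplets and −0.09 for malonyl-CoA and fuel signalling.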

How the data were processed

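RNA of 12 libraries (6 groups of 2) was sequenced after ribosomal RNA removal with a stranded kit, per the labels' protocols. Per the submitters' processing notes, the tools were DESeq2 1.24.0, StringTie 1.3.4d, STAR 2.7.1a and Trim Galore 0.6.0, and the build rn6 (Rnor_6.0). Per the file headers, each deposited table lists transcripts with FPKM and a mean coverage (signal) per base. FPKM had been normalized by the authors for transcript length and library total. Overlapping and antisense genes are uncertain, since whether strand was used is not given in the sources.

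FPKM of 41078 transcripts were summed by gene identifier (32883 genes). Median-of-ratios factors of 0.873 to 1.13, taken over the 15551 genes with a value in all libraries, rescaled them. Coverage gave depth only. The 13793 genes that reached 1 rescaled FPKM in 2 or more libraries entered limma 3.58.1 in R 4.3.3 (trended, robust moderation, 6 group means) on log2(FPKM + 0.5), so fold changes of low genes are understated. P-values were adjusted by Benjamini-Hochberg over all genes tested, and a gene is called below 0.05. The test was checked on simulated data with large planted differences and noise independent between libraries. That check did not cover small differences or replicates that deviate together. Python 3.11.15 read the tables and matplotlib 3.10.9 drew the figures. Promoter windows are RefSeq's, on GRCr8, which was not mixed with rn6 coordinates.

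All groups carry replicate numbers 1 and 2, and same-numbered libraries deviated together: over 15 pairs of groups their deviations from group means correlated at 0.155 to 0.672. This pairing is read from the values, since no label states it. A fit with the replicate number as a block is given where it changes a call. Alternatives were the pseudocount, the filter, the scaling, the block, the variance moderation, fits of the compared libraries alone and leaving out each library. Counts without Plin5 were added after seeing the data. The members and lists were chosen with earlier results of these data known. All 37 genes could be named. Full values went to members called with or without the block, at most 12 a comparison, and to isoform pairs, and of other genes to all listed regulators and at most 4 called genes a list, largest change first.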

Additional observations from a re-analysis of the deposited data

How the results depend on the processing

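Counts of called genes among the 35 depended on the fit for the agonists more than for JQ1. ET-1 against vehicle (1 call) gave 0 with a pseudocount of 0.1, 2 with a pseudocount of 1, 13 with the replicate block and 0 with only the compared libraries. PE against vehicle (2 calls) gave 1 with a pseudocount of 0.1, without a filter, with a filter of 1 FPKM in all 12 libraries and on the deposited scale, 11 with the replicate block and 0 with only the compared libraries. JQ1 gave 9 in vehicle on the deposited scale (14 as reported), and with only the compared libraries 7 in ET-1 (19) and 10 in PE (16). Under JQ1 the replicate block gave 10 for ET-1 and 7 for PE, in place of 0. With a library left out, calls ranged over 0 to 1 for ET-1 (0 to 16 with the replicate block), 0 to 3 for PE (0 to 14), 7 to 15 for JQ1 in vehicle (13 to 20), 10 to 19 for JQ1 in ET-1 (14 to 22), 11 to 16 for JQ1 in PE (14 to 22), 21 to 23 for JQ1 averaged (25 to 28), 0 to 1 for ET-1 under JQ1 (0 to 13) and 0 to 0 for PE under JQ1 (0 to 11). PE against ET-1 and both interactions stayed at 0 to 0 in these fits, with and without the block. With the block, 6 or 8 genes were called for ET-1 under JQ1 without a library of PE or of PE with JQ1, 4 or 8 for PE under JQ1 without a library of PE or of ET-1 with JQ1, and 6 for ET-1 without replicate 1 of ET-1. Acsl3 with JQ1 in vehicle ranged over −0.032 to 1.07 with a library left out, turning sign without replicate 1 of vehicle with JQ1. Over the named genes' results and each left-out library, 102 lost and 15 gained a call without the block. The median of all genes moved to −0.11 with ET-1 and −0.13 with PE on the deposited scale. A block fit with 1 library left out was added after seeing the data, and a group left with 1 library was assumed to vary like the others. The causes were not tested. With 2 libraries a group and no read counts, small differences and genes near 1 FPKM, such as Plin5 and Lipe, are least certain.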
